A study of Mus musculus with 10 samples.

Results

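The circadian clock of cells is a loop of transcription factors that runs in nearly every tissue. CLOCK and its partner BMAL1 (the product of Arntl) bind E-boxes and switch on the period genes Per1, Per2 and Per3 and the cryptochromes Cry1 and Cry2, whose proteins then hold CLOCK and BMAL1 back. A second loop runs through the nuclear receptors REV-ERBα and REV-ERBβ (Nr1d1 and Nr1d2), which repress Arntl, and the clock's output includes the PAR bZIP factors DBP (Dbp) and TEF (Tef), which bind D-boxes. These 10 genes, Per1, Per2, Per3, Cry1, Cry2, Nr1d1, Nr1d2, Dbp, Tef and Clock, were chosen by name for their place in that loop and not by their values, and made up 10 of the 21959 genes in the table. The question was whether clock level or clock phase differed between tumors or with wheel running.

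The study sequenced mRNA of 10 tumors of 4T1, a mouse mammary carcinoma cell line, grown after subcutaneous injection into the abdomen of female BALB/c mice aged 5 to 6 weeks. The exercise group (E, 5 mice, 5 tumors) had 21 days of voluntary wheel running and the non-exercise group (NE, 5 mice, 5 tumors) normal husbandry, both under a 12-hour light and dark cycle. The tumors of both groups grew from the same cell line and are named here by group and label number (E1 to E5, NE1 to NE5). The hour at which the tumors were taken is not given in the sources used here, so that a difference in clock phase and a difference in hour of collection cannot be told apart. In whole tumors, fewer cells of a type and less RNA per cell cannot be told apart either.

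In GRCm38, whose exonic lengths equal the lengths in the table, the genes lie as follows. The period genes are Per1 on chromosome 11 from 69095217 to 69109960, Per2 on chromosome 1 from 91415982 to 91459324 and Per3 on chromosome 4 from 151003652 to 151044665. The cryptochromes are Cry1 on chromosome 10 from 85131700 to 85185064 and Cry2 on chromosome 2 from 92403646 to 92434043, and the REV-ERB genes Nr1d1 on chromosome 11 from 98767932 to 98775333 and Nr1d2 on chromosome 14 from 18204054 to 18239127. The others are Dbp on chromosome 7 from 45705088 to 45710203, Tef on chromosome 15 from 81802421 to 81826863 and Clock on chromosome 5 from 76209868 to 76304792. Per1, Dbp and Tef are on the plus strand and the other 7 on the minus strand.

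Promoter windows from RefSeq (GRCm38.p6, 250 bases before to 50 after the start of transcription) were at hand for 9 of the 10 genes, all but Per2. The windows of the 4 genes whose level spread most between tumors are printed 5′ to 3′ on the gene's own strand, with matches to clock motifs in capitals. They show which of the 4 carry, within this window, the letters that clock factors are known to bind.
Dbp, chr7:45704997-45705296, plus strand: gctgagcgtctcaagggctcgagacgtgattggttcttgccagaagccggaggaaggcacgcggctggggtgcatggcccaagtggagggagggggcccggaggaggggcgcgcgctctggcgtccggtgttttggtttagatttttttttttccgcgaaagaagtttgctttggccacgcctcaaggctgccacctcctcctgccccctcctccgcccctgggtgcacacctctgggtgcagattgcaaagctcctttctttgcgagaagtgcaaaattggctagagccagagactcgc
Nr1d1, chr11:98775328-98775627, minus strand: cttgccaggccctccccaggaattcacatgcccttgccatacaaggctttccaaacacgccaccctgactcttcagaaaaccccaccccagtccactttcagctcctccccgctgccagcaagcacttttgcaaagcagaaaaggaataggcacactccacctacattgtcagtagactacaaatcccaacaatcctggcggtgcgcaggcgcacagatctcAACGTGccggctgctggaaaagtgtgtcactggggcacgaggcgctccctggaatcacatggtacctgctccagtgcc
Per1, chr11:69098699-69098998, plus strand: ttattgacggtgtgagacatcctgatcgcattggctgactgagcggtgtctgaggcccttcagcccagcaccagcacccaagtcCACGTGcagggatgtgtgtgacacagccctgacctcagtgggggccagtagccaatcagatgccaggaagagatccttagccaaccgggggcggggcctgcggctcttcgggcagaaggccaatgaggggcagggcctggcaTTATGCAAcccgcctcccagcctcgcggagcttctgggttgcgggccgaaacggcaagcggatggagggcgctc
Tef, chr15:81802423-81802722, plus strand: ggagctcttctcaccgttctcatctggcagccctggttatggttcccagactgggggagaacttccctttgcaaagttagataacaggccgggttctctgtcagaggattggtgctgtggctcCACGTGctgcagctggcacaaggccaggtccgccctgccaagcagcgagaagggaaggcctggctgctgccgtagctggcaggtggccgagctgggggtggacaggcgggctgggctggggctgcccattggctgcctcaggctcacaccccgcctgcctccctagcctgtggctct
The motifs searched on both strands were the E-box CACGTG, its variant CACGTT (the E′-box), the D-boxes TTATGTAA and TTATGCAA, the REV-ERB and ROR element TAGGTCA and the CRE TGACGTCA. The Per1 window held an E-box 166 bases and a D-box variant 24 bases before the start, the Tef window an E-box 127 bases before it, and the Nr1d1 window an E′-box 28 bases before it, read on the other strand as AACGTG. The Dbp window matched none of the 6 motifs. Of the 9 genes with a window, 3 (Per1, Cry1 and Tef) held an E-box in any of their windows, against 7.15% of the 32851 windows of all genes. The E′-box was held by 3 (Cry1, Cry2 and Nr1d1) against 4.68% of all windows, the D-box TTATGTAA by 1 (Per3) against 0.938%, and TTATGCAA by 1 (Per1) against 0.743%. None of the 9 held TAGGTCA or TGACGTCA, which 2.61% and 1.79% of all windows held. The 9 genes had 1 to 3 windows each, so a count by gene and a share of single windows are not like measures. These matches describe the letters in a window and not sites in use.

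The tumors held 15045613 to 23092251 counted reads each (15045613 to 20646763 in E, 18706032 to 23092251 in NE). Tumor NE4 stood apart: the summed level of 12 skeletal muscle genes was 30036 CPM there (the read count relative to the total of the tumor, scaled by TMM), against 311 to 4273 CPM in E, and 7.05 CPM in NE1, the lowest. No gene of that list was at 0 in every tumor, and 11 of the 12 passed the filter on low counts. Adipocyte markers were also highest in NE4 (164 CPM against 13.1 to 46.2 in E), fibroblast markers in E5 (15447 CPM against 987 to 4982 in NE), and keratinocyte markers in NE5 (129 CPM against 0.682 to 2.41 in E). Of 7 markers of carcinoma epithelium, only Krt19, Epcam and Cdh1 passed the filter, with a summed level of the 7 of 19.7 to 48.2 CPM. Endothelial markers (124 to 236 CPM) and lymphocyte markers (36.8 to 87.1 CPM) varied less, and macrophage (632 to 2388 CPM), neutrophil (68.9 to 540 CPM) and erythroid markers (7.17 to 61.0 CPM) overlapped between the groups. Tested were 11 muscle, 6 adipocyte, 8 endothelial, 8 fibroblast, 10 macrophage, 7 neutrophil, 5 lymphocyte, 3 epithelial, 1 keratinocyte and 4 erythroid markers. Of these single markers, 5 had an unadjusted p of at most 0.05 with edgeR, each at an adjusted p of 0.897. Of all 13517 genes tested, 657 (4.86%) had such an unadjusted p. The neutrophil genes S100a8 (log2 fold change 2.77), S100a9 (2.96) and Mmp9 (1.25) were on the higher side in E, and the epithelial Krt19 (-0.65) and Epcam (-1.01) on the lower side. Cdh1, the remaining epithelial marker tested, went the other way (0.16, edgeR unadjusted p = 0.652). Of these cell types, only muscle was set against the clock values below, by correlation and as a covariate. The part of the others in the clock values was not tested.

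FPKM is the read count relative to depth and to gene length, here the length of all annotated exons of the gene. By it, Nr1d2 (mean 9.13 FPKM) and Per1 (8.13 FPKM) were the highest of the 10 genes. Per2 (0.812 FPKM) and Per3 (0.650 FPKM) were the lowest. Between these pairs stood Cry1 at 6.28, Tef at 5.73, Cry2 at 3.77, Nr1d1 at 3.61, Clock at 2.58 and Dbp at 1.03 FPKM. All 10 genes lay between the 33.4 and 69.9 percentile of the 17925 genes with a read. Of the 9 steps in this order, 4 were larger than their spread over tumors by an exact sign-flip permutation test, two-sided, adjusted over the 9. These were Tef above Cry2 (in 10 of 10 tumors, adjusted exact p = 0.00879), Clock above Dbp (10 of 10, adjusted exact p = 0.00879), Per2 above Per3 (8 of 10, adjusted exact p = 0.0234) and Nr1d1 above Clock (7 of 10, adjusted exact p = 0.0396). Nr1d2 and Per1, Per1 and Cry1, Cry1 and Tef, Cry2 and Nr1d1, and Dbp and Per2 could not be ordered beyond their spread (adjusted exact p = 0.0908 to 0.527). When each tumor was left out in turn, 3 of the 4 steps passed in 10 of 10 runs, but Nr1d1 above Clock passed in 3 of 10. Nr1d2 above Per1 passed in 1 of 10, without NE5. The order depends on the length used, which the test over tumors does not vary. By mean CPM, Clock (35.4) was above Nr1d1 (11.2) and Per3 (6.25) above Per2 (4.76), the reverse of their FPKM order. Tef (45.2 CPM) stayed above Cry2 (23.8) and Clock above Dbp (3.10).

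**Figure D1:**
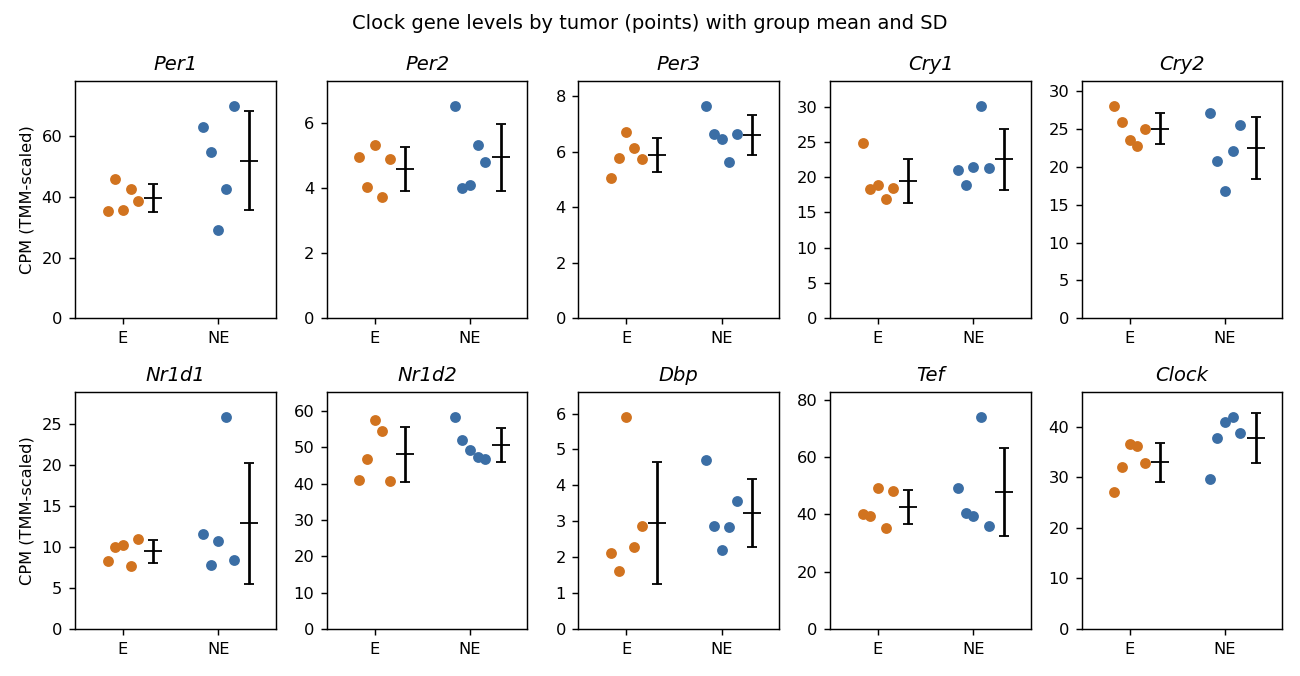
Level of each of the 10 clock genes in each tumor, in CPM scaled by TMM, with 1 point per tumor and the bar beside each group as its mean and SD (n = 5 per group). The points of the groups overlap for every gene, and NE4 is the highest point for Nr1d1, Tef, Cry1 and Clock.

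No difference of the 10 clock genes between exercise and non-exercise tumors was larger than the spread between tumors. With edgeR's quasi-likelihood test, 0 of the 10 passed a 2-fold change with an adjusted p of at most 0.05, which 0 of the 13517 genes tested did (0%). At an unadjusted p of at most 0.05, 0 of the 10 passed with edgeR, DESeq2 and limma-trend alike, against 657 of all genes with edgeR (4.86%). The values of E and NE overlapped for all 10, whereas 98 of the 13517 genes (0.725%) had values that did not overlap. The 95% interval of the log2 fold change held 0 for all 10 genes and lay within a 2-fold change either way for 9 of them, the exception being Nr1d1 (-1.13 to 0.24). All but Cry2 had a negative value, with a median log2 fold change of -0.17, against -0.014 over all genes tested. Since the genes share tumors, the common sign is a description and has no test of its own.

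The period genes encode the repressors that close the loop. Per1, which also responds to glucocorticoids and to light, was at 35.2, 46.0, 35.7, 42.7 and 38.5 CPM in E1 to E5 and at 63.2, 54.9, 29.2, 42.6 and 69.8 CPM in NE1 to NE5. NE5, NE1 and NE2 were above every E tumor and NE3 was below every one, so that NE spread wider than E (SD of log2 CPM 0.503 against 0.166). The means were 39.6 ± 4.63 (SD, n = 5) in E and 52.0 ± 16.3 (n = 5) in NE, a log2 fold change of -0.39 (SE 0.206, edgeR adjusted p = 0.897, interval -0.85 to 0.07). It depended on single NE tumors, with -0.54 without NE3 (edgeR unadjusted p = 0.00411, adjusted 0.999), -0.30 without NE1 (unadjusted p = 0.198) and -0.26 without NE5 (unadjusted p = 0.223). Per2 was at 3.73 to 5.31 CPM in E (median 4.88) and 3.99 to 6.49 CPM in NE (median 4.79), with a log2 fold change of -0.11 (SE 0.175, edgeR adjusted p = 0.941). Its highest tumor was NE1 and its lowest E4. Per3, the third paralog, was at 5.07 to 6.74 CPM in E (median 5.77) and 5.63 to 7.64 CPM in NE (median 6.63), with a log2 fold change of -0.17 (SE 0.126, edgeR adjusted p = 0.897). Per3 had the smallest SD of log2 CPM of the 10 genes, and by the ratio of the highest to the lowest tumor only Nr1d2 (1.43-fold) varied less than Per3 (1.51-fold).

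The cryptochromes are the other repressors of CLOCK and BMAL1. Cry1 was at 24.9, 18.3, 18.9, 16.9 and 18.4 CPM in E1 to E5 and at 21.0, 18.9, 21.4, 30.04 and 21.4 CPM in NE1 to NE5, with a log2 fold change of -0.21 (SE 0.144, edgeR adjusted p = 0.897). E1 and NE4 each lay far above the other tumors of their own group. The log2 fold change of Cry1 was -0.31 without E1 (edgeR unadjusted p = 0.0459, adjusted 0.838) and -0.084 without NE4. Cry2 was at 22.7 to 28.0 CPM in E (median 25.1) and 16.9 to 27.1 CPM in NE (median 22.2) and was the only one of the 10 with a positive log2 fold change (0.15, SE 0.125, edgeR adjusted p = 0.897). Its lowest value was in NE3, and the log2 fold change was 0.066 without NE3 and 0.24 without NE1.

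The REV-ERB genes encode receptors that repress Arntl. Nr1d1 was at 8.33, 9.96, 10.3, 7.73 and 10.999 CPM in E1 to E5 and at 11.6, 7.82, 10.7, 25.8 and 8.45 CPM in NE1 to NE5. NE4 was far above the next tumor, and the other 9 tumors lay between 7.73 and 11.6 CPM. The NE4 level rested on 564 reads of 145 to 564 over all tumors, and its level, 24.6 CPM without the TMM factor (95% Wilson interval 22.6 to 26.7), did not touch that of NE1, 11.8 CPM (10.5 to 13.3). The log2 fold change was -0.45 (SE 0.310, edgeR adjusted p = 0.897) and, without NE4, -0.03 (unadjusted p = 0.865). In exons, 263 of the 3077 bases of Nr1d1 (8.55%) lay opposite Thra on GRCm38, and the strand setting of the counting is not given, so that reads of the pair there cannot be told apart. Thra itself was at 43.8 CPM in NE4, within its range of 30.6 to 47.0 CPM over all tumors. Nr1d2 was at 40.7 to 57.4 CPM in E and 46.7 to 58.3 CPM in NE, with a log2 fold change of -0.08 (SE 0.110, edgeR adjusted p = 0.933). Its NE4 level, 47.4 CPM, was inside the range of the other tumors, and in GRCm38 5.13% of its stretches of 50 bases also occur elsewhere in the transcripts.

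Dbp and Tef encode the output factors that bind D-boxes. Dbp was at 2.11, 1.63, 5.90, 2.29 and 2.86 CPM in E1 to E5 and at 4.71, 2.86, 2.20, 2.84 and 3.56 CPM in NE1 to NE5. By the ratio of the highest to the lowest tumor it varied most of the 10 genes, 3.63-fold from E2 to E3, and these were both E tumors. Dbp rested on 31 to 120 reads, and its level without the TMM factor was 5.82 CPM in E3 (95% Wilson interval 4.87 to 6.96) against 1.66 in E2 (1.17 to 2.36). The log2 fold change was -0.13 (SE 0.355, edgeR adjusted p = 0.963, interval -0.91 to 0.66). The exons of Dbp lie opposite Sphk2 over 539 of 2993 bases (18.0%), and Sphk2 was at 21.2 CPM in E3, within its range of 17.4 to 23.5 CPM. Tef was at 40.3, 39.5, 49.3, 35.4 and 48.2 CPM in E1 to E5 and at 49.2, 40.6, 39.4, 74.0 and 36.0 CPM in NE1 to NE5. NE4 was again the highest tumor, and the other 9 lay between 35.4 and 49.3 CPM. The log2 fold change of Tef was -0.17 (SE 0.192, edgeR adjusted p = 0.911) and, without NE4, 0.04.

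Clock encodes the activator that pairs with BMAL1. It was at 27.1, 32.1, 36.6, 36.2 and 32.9 CPM in E1 to E5 and at 29.6, 37.9, 41.0, 42.0 and 38.7 CPM in NE1 to NE5. In NE, 4 tumors lay above every E tumor and NE1 lay below 4 of the 5, and the log2 fold change was -0.20 (SE 0.112, edgeR adjusted p = 0.897, interval -0.45 to 0.05). The replicate number as a block gave an unadjusted p of 0.0113 with edgeR (adjusted 0.871). Same-numbered tumors did not deviate together, which does not exclude a pairing. Without NE1, the unadjusted p was 0.0171 and the adjusted p 0.477, the lowest of any of the 10 genes in any of the 20 alternatives.

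**Figure D2:**
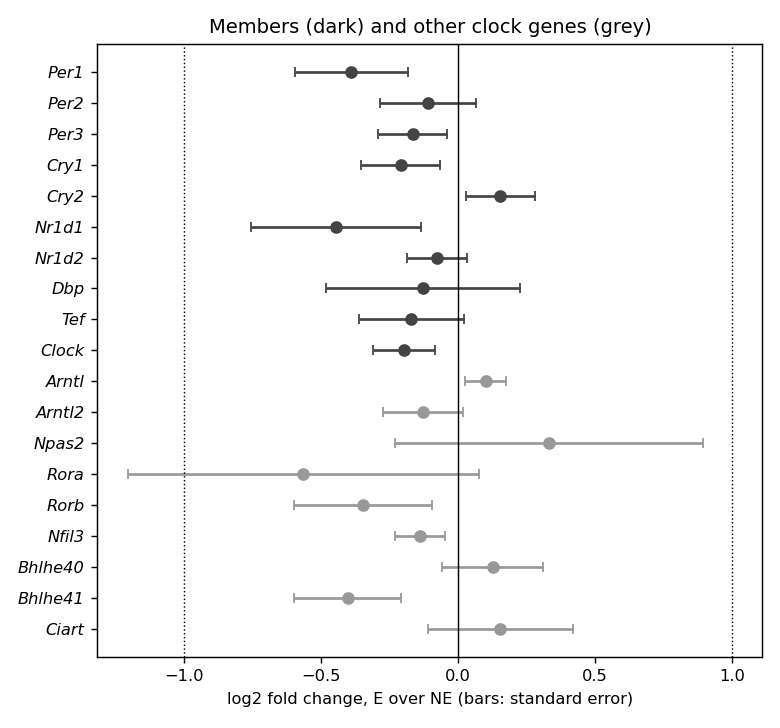
Log2 fold change, E over NE, from edgeR for the 10 clock genes (dark) and 9 other clock genes (grey), with bars of 1 standard error (n = 5 per group) and dotted lines at a 2-fold change. All 10 dark points lie between -0.45 (Nr1d1) and 0.15 (Cry2), and the widest bars are those of Rora and Npas2.

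The spread between tumors differed from gene to gene. The SD of log2(CPM + 0.1) over the 10 tumors was 0.541 for Dbp (percentile 85.8 of all genes tested), 0.502 for Nr1d1 (83.9), 0.394 for Per1 (77.0) and 0.315 for Tef (70.3). It was 0.166 to 0.245 for Per2, Per3, Cry1, Cry2, Nr1d2 and Clock, at percentiles of 42.0 to 61.4. The median over the 10 was 0.243, against 0.193 over all genes tested. The percentiles compare genes of unlike read count. edgeR's biological coefficient of variation within groups was also divided by its trend for genes of like level. That ratio was 1.14 for Per1 (percentile 88.5), 1.07 for Tef (86.6), 0.999 for Nr1d1 (84.1) and 0.859 for Dbp (77.1). Without NE4, the SD of Nr1d1 was 0.222 (percentile 61.3) and that of Tef 0.186 (53.4), whereas Dbp stayed at 0.574 (89.0) and Per1 at 0.418 (80.9).

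**Figure D3:**
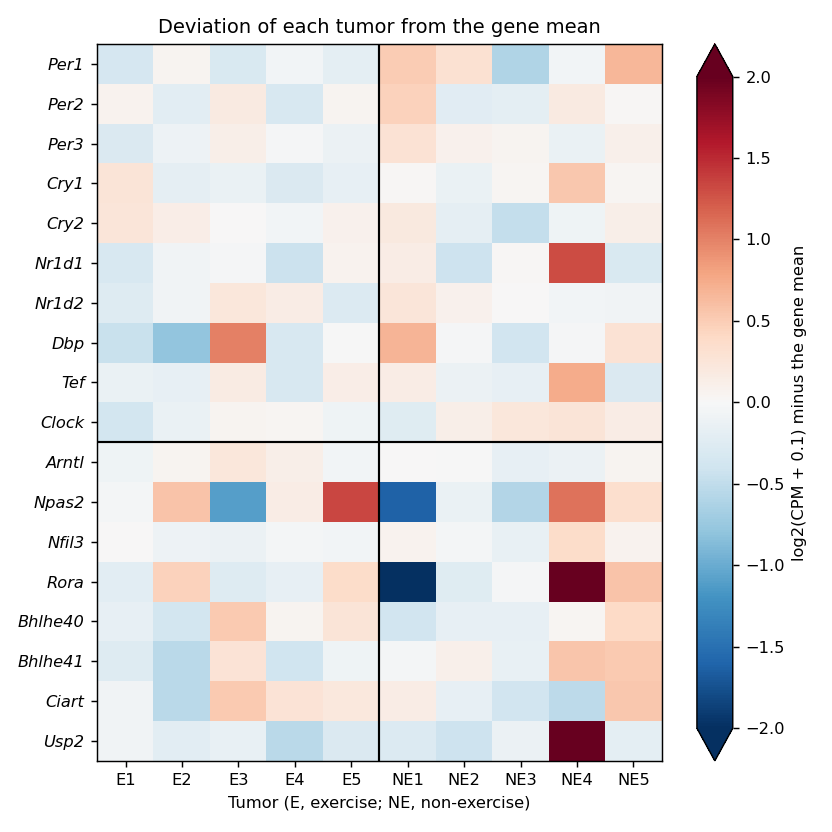
Deviation of each clock gene in each tumor from its mean over the 10 tumors, as log2(CPM + 0.1), with 8 other clock genes below the line and colors from blue (low) to red (high), limited at 2 either way. NE4 is high for Nr1d1, Tef and Cry1, E3 for Dbp, and no tumor is high or low for all 10 genes. Below the line, Rora and Usp2 are high in NE4.

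Genes with opposite times of peak in a running clock give a ratio that moves with phase more than with level. Log2 of Nr1d1 over Arntl was -2.38 ± 0.246 (SD, n = 5) in E and -1.97 ± 0.740 in NE, a difference of -0.41 (exact permutation p = 0.310, 0.464 adjusted over 3 ratios). It ran from -2.72 in E4 to -0.74 in NE4, and the other NE tumors lay between -2.57 and -1.97. Without NE4 the difference was -0.10. Log2 of Per2 over Arntl was -3.42 ± 0.257 in E and -3.23 ± 0.273 in NE, a difference of -0.20 (exact permutation p = 0.262, adjusted 0.464) that was -0.11 without NE1 and also -0.11 without E4. Log2 of Dbp over Nfil3 was -4.06 ± 0.733 in E and -3.96 ± 0.404 in NE, a difference of -0.11 (exact permutation p = 0.770, adjusted 0.770). Dbp over Nfil3 was highest in E3 (-2.85) and lowest in E2 (-4.73), and Per2 over Arntl was highest in NE1 (-2.87) and lowest in E4 (-3.77). Each ratio had a different tumor at its top. The smallest exact p that 5 against 5 can give is 0.00794.

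**Figure D4:**
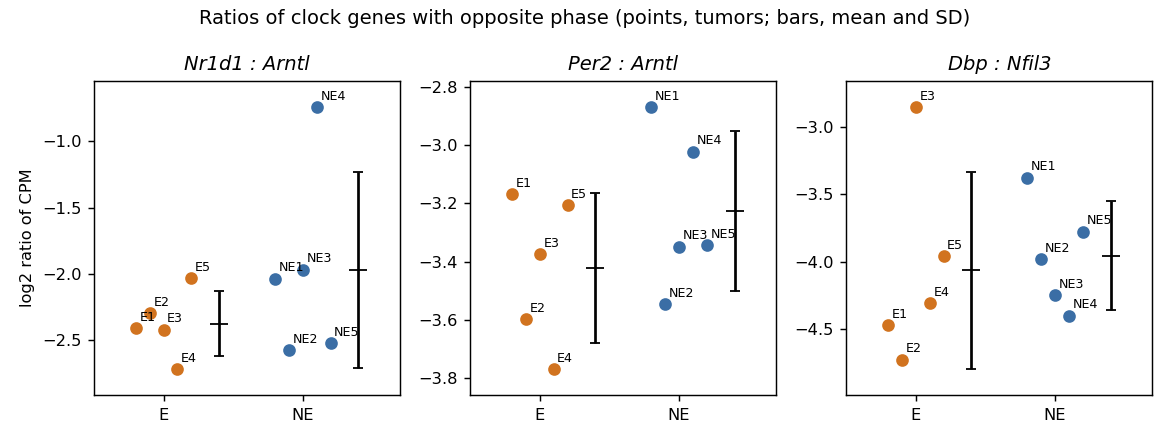
The log2 ratios Nr1d1 to Arntl, Per2 to Arntl and Dbp to Nfil3 in each tumor, by group, with the mean and SD (n = 5 per group). The groups overlap in all 3 ratios, and NE4 stands apart for Nr1d1 to Arntl.

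Over the 10 tumors, no clock gene was related to Arntl at an adjusted p of at most 0.05 (10 relations). Cry1 had the lowest r with Arntl, -0.59 (permutation p = 0.0745, adjusted 0.453), with a Spearman rho of -0.67 (permutation p = 0.0400, adjusted 0.400), and r was -0.76 without E3 and NE3. Nr1d2 had the highest, 0.56 (permutation p = 0.0905, adjusted 0.453). After each group's mean was subtracted, r with Arntl was 0.77 for Nr1d2 (permutation p = 0.0111) and 0.77 for Per3 (permutation p = 0.00976), both at an adjusted p of 0.0556, against 0.36 for Per3 without that step. The centred r was 0.67 for Dbp (permutation p = 0.0293, adjusted 0.0976) and 0.58 for Per1 (adjusted 0.193), so that again none passed. Nr1d1, which is known to repress Arntl, had an r of -0.38. With 1 tumor left out, the r of Nr1d1 ran from -0.50 to -0.135, the latter without NE4. Dbp had one of 0.51, which was -0.06 without E3 and NE3, 0.096 without E3 alone and 0.46 without NE3 alone, and so rested on E3. Arntl itself was at 41.7 to 55.0 CPM, with its highest level in E3.

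Over the 45 pairs of the 10 genes, the median Pearson r of log2 CPM over the 10 tumors was 0.16, 30 pairs were positive, and the values ran from -0.77 for Cry2 and Clock to 0.93 for Nr1d1 and Tef. Nr1d1 with Tef stayed at 0.74 without NE4, Per3 with Nr1d2 was at 0.80 (0.82 without NE4) and Per2 with Dbp at 0.70 (0.73). Cry1 with Nr1d1 went from 0.71 to 0.04 without NE4. All points share a library, so these values describe the tumors and carry no test. Among the 5 genes most like Nr1d1, of 10960 with a mean of at least 5 CPM, were Fitm2 (r = 0.957 over 10 tumors, 0.700 without NE4), Myorg, Mpc2 and Aqp1 (0.933, 0.720). For Tef the 5 were Slc6a8 (0.933), Nr1d1 (0.928), Eloa, Aqp1 and Fitm2. For Dbp they were Ss18l1 (0.918), Zfp777, Rdh13, Ubr7 and Wwox, and for Clock Agtpbp1 (0.977), mt-Atp6 (0.964), Bbip1, Rwdd1 and Dram2. Each list is the top 5 of 10960 genes over only 10 tumors, where some high r values arise by chance. The lists are a description without a test.

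No relation of the 10 genes to the level of muscle markers passed after adjustment. With the log2 summed level of the muscle list, Per3 had an r of -0.73 (permutation p = 0.0192, adjusted 0.192 over 10 relations), with a rho of -0.72 (adjusted 0.114), and Dbp one of -0.61 (adjusted 0.309), with a rho of -0.81 (permutation p = 0.00722, adjusted 0.0722). Without NE1 and NE4, the tumors farthest from the median, r was -0.47 for Per3 and -0.76 for Dbp. Nr1d1 had an r of 0.45 and a rho of 0.04, and Tef one of 0.32 and a rho of 0.006. The part of muscle RNA in the NE4 values of Nr1d1, Tef and Cry1 was not tested.

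**Figure D5:**
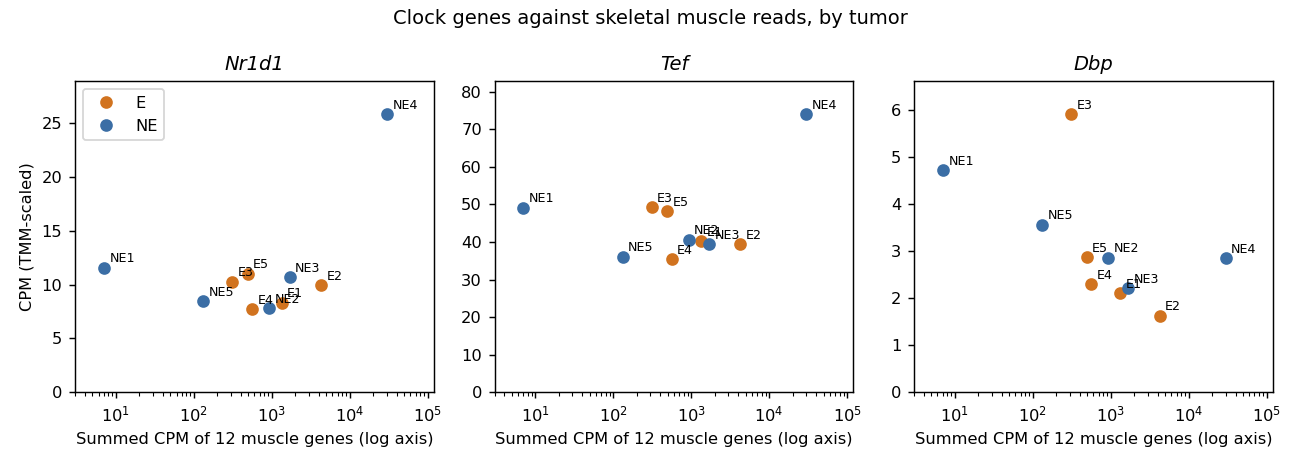
Level of Nr1d1, Tef and Dbp in each tumor (CPM, linear axis from 0) against the summed level of 12 skeletal muscle genes (CPM, log axis). NE4 is at the right end with the highest Nr1d1 and Tef, NE1 is at the left end, and Dbp is highest in E3 and lowest in E2.

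Of 32 other clock genes, 29 passed the filter and 0 of them had an unadjusted p of at most 0.05, with 15 positive and 14 negative log2 fold changes and a median of 0.002. Arntl, the partner of Clock, had a log2 fold change of 0.10 (SE 0.0747, edgeR unadjusted p = 0.210), Nfil3, the D-box repressor, -0.14 (SE 0.0899), and Bhlhe41, an E-box repressor, -0.40 (SE 0.195, edgeR unadjusted p = 0.0648). Arntl2 was at -0.13, Npas2 at 0.33, Bhlhe40 at 0.13 and Ciart at 0.15. Rora, a receptor that activates Arntl, was at 27.9 CPM in NE4 against 0.976 to 9.64 CPM elsewhere, with a log2 fold change of -0.57 (SE 0.641). Hlf, the third PAR bZIP factor, had 62 reads in NE4 and 0 to 12 in every other tumor and was not tested. Of 10 genes that respond to glucocorticoid or cold, 9 were tested, and 1 had an unadjusted p of at most 0.05, against 4.86% of all genes. It was Tsc22d3, a glucocorticoid target (log2 fold change -0.34, SE 0.144, edgeR unadjusted p = 0.0374, adjusted 0.897). The 7 glucocorticoid targets tested went both ways, 4 positive and 3 negative with a median of 0.061, among them Dusp1 at 0.48 (edgeR unadjusted p = 0.0603) and Errfi1 at 0.23 (0.0809). The cold-inducible Cirbp (log2 fold change 0.54) was at 83.5 CPM in E3, the tumor with the highest Dbp, and at 18.8 CPM in NE4, its lowest. Rbm3, the other cold-inducible gene (-0.06), was nearly as high in NE5 (245 CPM) as in E3 (248 CPM). It was at 158 CPM in NE4 and lowest in E2 (151 CPM).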

How the data were processed

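The data were mRNA sequencing of 10 tumors, 5 E and 5 NE, with groups and numbers taken from the sample labels. Hisat2 was the authors' aligner, and Stringtie gave them FPKM. Their methods name a rat reference genome, whereas the deposited table holds mouse gene symbols, and its build is not named. The authors deposited 1 table with a count and an FPKM per gene and tumor. The counts were whole numbers and not normalized, and the deposited FPKM equalled the count divided by gene length and by the tumor's total (relative deviations up to 3.78e-14). How the counts were made, and whether by strand, is not given in the sources used here. No column was left unmapped (0), and the table's gene descriptions were not used.

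Counts were filtered with filterByExpr, scaled by TMM and tested with edgeR 4.0.16 (glmQLFit and glmQLFTest, R 4.3.3), with Benjamini-Hochberg adjustment over the 13517 genes tested. Calls needed an adjusted p of at most 0.05 and a change of 2-fold or more. Correlations used log2(CPM + 1) and 100000 permutations, and ratios and the FPKM order used exact permutation tests (scipy 1.17.1). DESeq2 1.42.0, limma-trend (limma 3.58.1) on log2(FPKM + 1) and log2(FPKM + 0.1), 2 other scalings, 2 other filters, muscle or total count as a covariate, the replicate block and leaving out each tumor were alternatives. The tests were checked on simulated counts. Wilson intervals cover counting error only, and reads were counted without molecular identifiers. Each group had 5 mice and 5 sequenced tumors, so the tumors were taken as separate animals, although no label names the mouse.

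The 10 genes and the other lists were chosen with earlier results of these data known. Named genes were the 10 members, other clock genes listed by name, any listed gene with an unadjusted p of at most 0.05 and, for Dbp, Nr1d1, Tef and Clock, the 5 genes with the highest r. Some genes that this rule names are not reported here. Rora and Hlf levels in NE4, Cirbp, Rbm3, Thra and Sphk2 were described after their values were seen. Structures, promoters and overlaps came from GRCm38, and no coordinate was converted between builds. Same-numbered tumors did not deviate together (correlations of -0.325 to 0.316 over the 5 pairs), so the numbers were not taken as pairs. The study describes the sequenced tumors as 5 matched pairs, without saying what matched them or that the numbers mark the pairs. It also states that the mice were divided at random.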

Additional observations from a re-analysis of the deposited data

Results flagged for a closer look

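Of 52 groups of 5 values tested with Dixon's limit for the gap of the highest or lowest tumor to its neighbour, 6 passed, where chance gives about 2.6 (1 in 20). The groups share tumors, so that number is only a guide. Nr1d1 in NE4 was at 25.8 CPM, against 11.6 in the next NE tumor. Cry1 in NE4 was at 30.04 CPM against 21.4, and Cry1 in E1 at 24.9 against 18.9. Dbp in E3 was at 5.90 CPM against 2.86, from 120 reads. Among the other clock genes, Usp2 in NE4 was at 31.0 CPM against 5.86 and Arntl2 in E5, the lowest, at 27.1 against 35.1. Outside that count stand Hlf in NE4, at 2.84 CPM against 0.570, and the glucocorticoid target Zbtb16 in NE4, at 13.1 against 1.10. As a share of the range within NE, both gaps are also larger than the limit of 0.71. Their absence from the 6 therefore does not mean that they stayed below it. Of the 6, 3 were in NE4, the tumor with the highest level of muscle markers. The part of muscle RNA in them was not tested.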

How the results depend on the processing

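No clock gene was called under any of the 20 alternatives, and the adjusted p of the 10 genes went no lower than 0.477. The number at an unadjusted p of at most 0.05 was 0, and 0 to 1 when 1 tumor was left out (Cry1 without E1, Clock without NE1, Per1 without NE3). Under the replicate block it was 1 (Clock, unadjusted p = 0.0113), where 1 of 10 tumors correlated best with its own number, which does not exclude a pairing. Over all genes that count was 657, 122 with total count as a covariate, 1138 with muscle, 1350 without NE1, 372 without E5 and 400 without NE3. With total count as a covariate, log2 fold changes changed sign for Per2 (0.0195), Nr1d2 (0.0100) and Dbp (0.0769). Leaving out 1 tumor gave -0.54 to 0.0580 for Dbp, positive without E2 (0.0246) or NE1, -0.18 to 0.0210 for Per2 (NE1) and -0.26 to 0.0409 for Tef (NE4). The Dbp to Nfil3 difference ran from -0.41 to 0.0595 (without E2; 0.0386 without NE1). Log2 fold changes with 1 tumor left out were otherwise -0.54 to -0.26 (Per1), -0.22 to -0.096 (Per3), -0.31 to -0.084 (Cry1), 0.066 to 0.24 (Cry2), -0.58 to -0.029 (Nr1d1), -0.15 to -0.010 (Nr1d2) and -0.26 to -0.13 (Clock). Of the 9 steps in the FPKM order, 3 to 5 passed. Correlations with Arntl ran from -0.00328 to 0.64 for Per1, -0.21 to 0.21 for Per2, -0.099 to 0.51 for Cry2, -0.33 to 0.14 for Clock (0.17 after centring on group means) and -0.49 to 0.13 for Tef. Those with muscle ran from -0.80 to 0.0701 for Per2, -0.12 to 0.61 for Cry1, -0.33 to 0.76 for Nr1d1 and -0.44 to 0.65 for Tef, the last 3 negative without NE4. The cause of these changes was not tested. Dbp, with 31 to 120 reads, is the gene most limited by depth.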
